A study of Mus musculus with 6 samples.

Results

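The genes described here encode the ligands, receptors, secreted inhibitors and transcriptional readouts of Wnt signalling. They were taken by symbol from the gene annotation: every numbered Wnt, Frizzled, R-spondin, Dickkopf and secreted Frizzled-related gene, plus 16 co-receptors, inhibitors, ubiquitin ligases, feedback genes and nuclear factors. In all, 57 of the 46517 genes in the count files were members, and 44 of them had enough reads to be among the 15862 genes tested. RNA sequencing was performed on primary cultured renal tubule epithelial cells (RTECs), which are grown from kidney cell suspensions of wild type FvB mice aged 4 to 6 weeks by the labels. Of 6 cultures, 3 were controls (CTL) and 3 received 50 ng/ml of the growth factor TGF-β1 for 24 h. Both groups were grown with 10% fetal bovine serum, 20 ng/ml EGF and an insulin-transferrin-selenium supplement, and spent 24 h in serum-free medium before treatment. The labels do not say whether the cultures of a group came from different mice, so the p-values below measure only the spread between these cultures.

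Wnt proteins are secreted lipid-modified ligands that bind Frizzled receptors at the cell surface. With the co-receptors Lrp5 and Lrp6 they stabilize β-catenin, which then acts on genes through the TCF/LEF factors, whereas with Ror or Ryk co-receptors they act on cell shape and polarity without β-catenin. R-spondins raise the sensitivity to Wnt by drawing the ubiquitin ligases Znrf3 and Rnf43, which remove Frizzled receptors, to their own Lgr receptors. In the kidney, Wnt ligands direct the formation of nephrons and collecting ducts in the embryo, and the pathway is known to be active again after tubule injury and in fibrosis.

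Library totals on genes ran from 28313080 to 34183497 reads, and no library matched another within sampling noise. The 3 reads taken as the limit of detection correspond to 0.0878 to 0.106 CPM (reads scaled by the library total), which covers counting error only. Skil, a negative regulator that TGF-β1 is known to induce, went from 6871 ± 509.6 to 11643 ± 324 normalized counts (SD, n = 3), a log2 fold change of 0.76 (edgeR adjusted p = 0.00379). The epithelial markers Epcam, Cdh1, Krt8, Krt18, Pax8 and Pax2 were read in every library, but 4 of 7 proximal tubule markers (Slc34a1, Slc5a2, Slc22a6 and Slc27a2) had at most 10 reads in any library. Of the other 3, Lrp2 (884 to 2444 reads) fell by 0.93 on the log2 scale (edgeR adjusted p = 0.0165), Aqp1 (30 to 518 reads) fell by 2.91 (edgeR adjusted p = 0.00919), and Cubn did not pass. Hsd11b2 of the collecting duct list rose by 1.65 (edgeR adjusted p = 0.0415). Scnn1g, the other gene tested there (5 to 30 reads), had a log2 fold change of -1.77. Over all 6 libraries it passed with the replicate number as a block and not without it (edgeR adjusted p = 0.0845, and 0.00845 with the block). With both replicate 2 cultures left out and no block, Scnn1g had -1.98 (edgeR adjusted p = 0.0327). Csf1r of the leukocyte list fell, and so did Des of the smooth muscle list. Acta2 and Myh11 of that list rose only with the block (log2 fold changes 0.56 and 0.94, edgeR adjusted p = 0.000379 and 0.018), and Rgs5 passed in neither fit. Replicate 2 stood apart in both groups: the summed level of 4 Y-linked genes was 151 CPM in CTL and 142 CPM in TGF-β1 replicate 2 and at most 0.172 CPM elsewhere. With Xist, a transcript of female cells, added to these genes, the sum was 389 CPM in CTL and 349 CPM in TGF-β1 replicate 2. Elsewhere that sum was 517 to 634 CPM, so Xist was read in every library, replicate 2 included. The study's methods describe the mice as male and slightly younger than the labels do, and the libraries without Y-linked reads go against that description. The summed epithelial list was 1060 CPM in CTL replicate 2 against 1963 and 2637 CPM in the other CTL cultures, and 916 against 1786 and 2185 CPM with TGF-β1. The sum of 10 fibroblast genes ran the other way, at 2902 CPM in CTL replicate 2 against 1714 and 1519. With TGF-β1 it was 3765 against 2373 and 1796 CPM. Within that list, Col1a1, Col1a2, Col3a1, Dcn and Pdgfrb were highest in replicate 2 of both groups, whereas Postn, Thy1 and Pdgfra were lowest there. In the epithelial list, Epcam, Cdh1, Krt8 and Krt18 were lowest in replicate 2 of both groups, and Cdh16, Pax8 and Pax2 were not. Between treatments, 0 of the 9 fibroblast genes tested passed in edgeR or DESeq2, with 0 at an unadjusted p under 0.05 in edgeR, and 3 rose and 2 fell once the replicate number was a block. In the epithelial list, Cdh16 and Pax8 fell and the other 5 genes did not pass, while with the block 5 of the 7 fell, Epcam, Cdh1 and Pax2 being the others. Endothelial genes summed to 2.70 to 5.73 CPM in all 6 libraries and leukocyte genes to 3.83 to 8.45 CPM, and Cd3e and Ms4a1, which mark lymphocytes, had at most 1 read. The part of these markers in the results below was not tested, and in bulk cultures fewer cells of a type and less RNA per cell cannot be told apart.

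With TGF-β1, 5 of the 44 Wnt genes tested rose and 3 fell at an adjusted p-value under 0.05. The share of all tested genes called was 5.00% higher and 6.69% lower, or 11.7% in either direction, beside 18.2% of the Wnt genes. Wnt1, Wnt10b, Wnt9a, Lgr5 and Tcf7l2 rose, and Wnt16, Fzd4 and Sfrp1 fell. The median log2 fold change of the tested members was -0.05, against -0.003 over all genes. Same-numbered CTL and TGF-β1 cultures varied together, and with the replicate number as a block 15 members rose and 15 fell, where 15.1% and 19.1% of all tested genes were called (34.2% in either direction). All 8 genes called without the block were among these 30. With both replicate 2 cultures left out, 13 members rose and 7 fell (6.73% and 8.01% of all genes), and the 8 were again among them. Without CTL replicate 1 or without TGF-β1 replicate 1, none of the 8 passed in edgeR, and 14 and 16 members had an unadjusted p under 0.05. None of the 8 has an exon that overlaps another annotated gene, whereas 9 of the 57 members do (Fzd5, Fzd6, Rspo3, Wnt11, Wnt5a, Wnt7b, Axin2, Sfrp2 and Lef1).

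**Figure D1:**
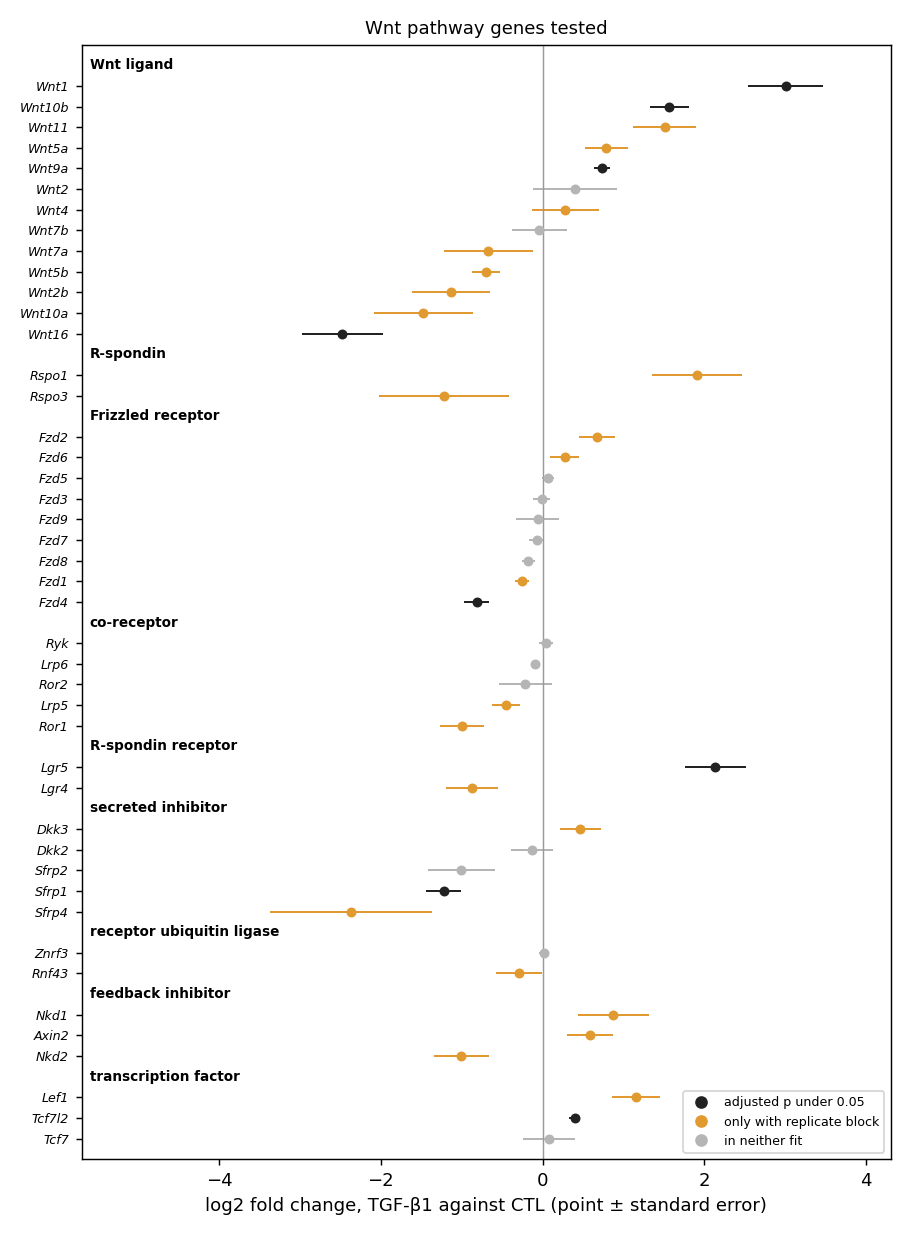
Log2 fold change of each of the 44 Wnt genes tested, TGF-β1 against CTL (x axis; point ± standard error, 3 cultures a group), grouped by role. Black points passed an adjusted p of 0.05 (8 genes), orange points passed only with the replicate block (22 genes) and grey points passed in neither fit (14 genes).

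Of 19 Wnt ligand genes, 13 were tested, and 3 rose while 1 fell. Wnt1, the founding ligand of the family and an activator of β-catenin signalling, lies on chr15:98789857-98793837 of GRCm38, plus strand. It had 7.73, 1.92 and 5.46 normalized counts in CTL replicates 1, 2 and 3, and 54.9, 29.0 and 39.5 in the TGF-β1 cultures. All 3 treated cultures were above all CTL cultures, whose level was close to the limit of detection (8, 2 and 5 reads). The mean went from 5.04 ± 2.93 to 41.1 ± 13.0 normalized counts (SD, n = 3), a log2 fold change of 3.00 (standard error 0.46, edgeR adjusted p = 0.014). Because CTL replicate 2 had fewer than 3 reads, the size of this increase is less certain than its direction.

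Wnt10b, a β-catenin-activating ligand best known from bone and fat, lies 11.71 kb from Wnt1 on the opposite strand (chr15:98770712-98778150). It was more abundant than Wnt1 in reads, at 114, 124 and 111 normalized counts in CTL and 310, 473 and 255 with TGF-β1. The CTL cultures lay close together and the treated ones were all higher. From 116 ± 6.75 to 346 ± 113 normalized counts (SD, n = 3), the log2 fold change was 1.57 (standard error 0.24, edgeR adjusted p = 0.014), or 2.96-fold.

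Wnt9a, a ligand with a known part in joint formation, lies on chr11:59306928-59333552, plus strand. Its CTL cultures had 3649, 3915 and 3490 normalized counts and its TGF-β1 cultures 6025, 6946 and 5380. The groups did not overlap, and replicate 2 was the highest in each. The means were 3685 ± 215 and 6117 ± 787 (SD, n = 3), with a log2 fold change of 0.73 (standard error 0.10, edgeR adjusted p = 0.011). Wnt3a, its neighbour 16.18 kb away, had at most 3 reads in any library.

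Wnt16, a ligand known for keeping cortical bone thick, was the ligand that fell (chr6:22288227-22298522, plus strand). Its CTL level varied widely, at 578, 1237 and 351 normalized counts, whereas the TGF-β1 cultures had 152, 143 and 94.9. Even the lowest CTL culture was above every treated culture. The mean fell from 722 ± 460 to 130 ± 30.9 (SD, n = 3), a log2 fold change of -2.47 (standard error 0.50, edgeR adjusted p = 0.0322). Of the 4 ligands called it had the highest adjusted p, and without the filter on low counts the edgeR adjusted p was 0.111. With both replicate 2 cultures left out, the log2 fold change was -1.92 (edgeR adjusted p = 0.0243).

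The promoters of these 4 ligands are shown because theirs were the ligand transcripts that passed the test. They were read from RefSeq on GRCm38.p6 from 250 bases before to 50 bases after the start site, 5′ to 3′ on the gene's strand. Capitals mark CAGAC, the core bound by SMAD proteins that carry the TGF-β1 signal, in either orientation (GTCTG is its reverse complement). CTTTGAT and CTTTGTT, forms of the TCF/LEF site, were searched on both strands as well and matched none of the 4. The windows are chr15:98789607-98789906 (plus) for Wnt1, chr15:98778101-98778400 (minus) for Wnt10b, chr11:59306680-59306979 (plus) for Wnt9a and chr6:22287977-22288276 (plus) for Wnt16.
Wnt1: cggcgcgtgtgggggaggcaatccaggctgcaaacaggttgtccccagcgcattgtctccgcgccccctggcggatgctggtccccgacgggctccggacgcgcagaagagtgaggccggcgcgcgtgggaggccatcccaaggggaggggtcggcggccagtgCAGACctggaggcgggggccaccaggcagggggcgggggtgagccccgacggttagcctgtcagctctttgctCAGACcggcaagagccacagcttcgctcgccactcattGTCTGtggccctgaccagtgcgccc
Wnt10b: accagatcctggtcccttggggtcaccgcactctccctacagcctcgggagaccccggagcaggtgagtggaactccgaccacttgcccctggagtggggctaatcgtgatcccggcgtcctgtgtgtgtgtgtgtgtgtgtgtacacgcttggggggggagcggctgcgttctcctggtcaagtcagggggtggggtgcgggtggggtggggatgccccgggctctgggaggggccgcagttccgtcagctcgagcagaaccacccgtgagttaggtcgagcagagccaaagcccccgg
Wnt9a: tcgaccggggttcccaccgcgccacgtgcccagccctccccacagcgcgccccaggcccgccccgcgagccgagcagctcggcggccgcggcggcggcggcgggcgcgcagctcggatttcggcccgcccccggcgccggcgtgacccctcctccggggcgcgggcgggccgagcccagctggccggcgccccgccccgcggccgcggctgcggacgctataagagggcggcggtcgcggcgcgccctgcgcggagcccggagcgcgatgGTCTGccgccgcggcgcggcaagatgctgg
Wnt16: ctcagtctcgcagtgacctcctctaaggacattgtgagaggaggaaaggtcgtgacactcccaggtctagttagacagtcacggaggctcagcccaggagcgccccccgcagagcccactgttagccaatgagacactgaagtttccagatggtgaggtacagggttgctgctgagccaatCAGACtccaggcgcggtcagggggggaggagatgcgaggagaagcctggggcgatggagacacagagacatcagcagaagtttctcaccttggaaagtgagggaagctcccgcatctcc
Wnt1 held 3 matches, with first bases at -86, -13 and 26 from the start site, the last on the reverse strand. Wnt9a had 1 on the reverse strand at 21, Wnt16 had 1 at -69, and Wnt10b had none. CAGAC was present in 49.6% of all promoters of this length in the table, CTTTGAT in 3.73% and CTTTGTT in 5.85%. Among the 48 promoters listed for 39 of the 57 members, 26 held CAGAC, 2 held CTTTGAT and 4 held CTTTGTT. These matches are a description of the letters only. By base composition the 4 windows ran from 58.0% GC in Wnt16 to 83.3% in Wnt9a, with 10 and 58 CpG dinucleotides.

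A further 7 ligands passed the threshold only with the replicate block. Wnt11, a ligand that acts on cell movement and is made at the tips of the embryonic ureteric bud, had 218, 449 and 218 normalized counts in CTL and 719, 1202 and 608 with TGF-β1. The groups did not overlap, and replicate 2 was the highest in both. Its log2 fold change was 1.51 (edgeR adjusted p = 0.0604, and 1.2e-05 with the block). Wnt5a, the main ligand of the Ror receptors, had 2490, 3463 and 2272 normalized counts in CTL and 4126, 6536 and 3552 with TGF-β1. Every treated culture was above every CTL culture, and the log2 fold change was 0.79 (edgeR adjusted p = 0.12, and 6.23e-05 with the block). Wnt5b, its close paralog, ran the opposite way, at 468, 385 and 502 normalized counts in CTL and 297, 218 and 320 with TGF-β1. These groups did not overlap either, and the log2 fold change was -0.70 (edgeR adjusted p = 0.0522, and 0.00042 with the block).

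Wnt4, which drives the formation of the nephron, had 1427, 2653 and 1205 normalized counts in CTL and 1677, 3251 and 1500 with TGF-β1. The difference between replicates was larger than that between treatments, while each treated culture was above its same-numbered control (log2 fold change 0.28, edgeR adjusted p = 0.705, and 0.00233 with the block). In the fit without the block its log2 fold change turned to -0.16 when TGF-β1 replicate 2 was left out. Wnt7a had 2193, 980 and 3549 normalized counts in CTL and 1489, 698 and 2034 with TGF-β1, with replicate 2 lowest in both groups (log2 fold change -0.67, edgeR adjusted p = 0.484, and 0.000288 with the block). Wnt10a had 314, 102 and 427 against 108, 47.7 and 147 normalized counts (log2 fold change -1.47, edgeR adjusted p = 0.179, and 0.000102 with the block). Wnt6, its neighbour 6.194 kb away, had at most 4 reads and was not tested. Wnt2b had 161, 319 and 87.3 normalized counts in CTL and 88.4, 106 and 64.8 with TGF-β1 (log2 fold change -1.14, edgeR adjusted p = 0.187, and 0.00833 with the block). For Wnt2b the groups overlapped at CTL replicate 3, which was under TGF-β1 replicates 1 and 2.

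**Figure D2:**
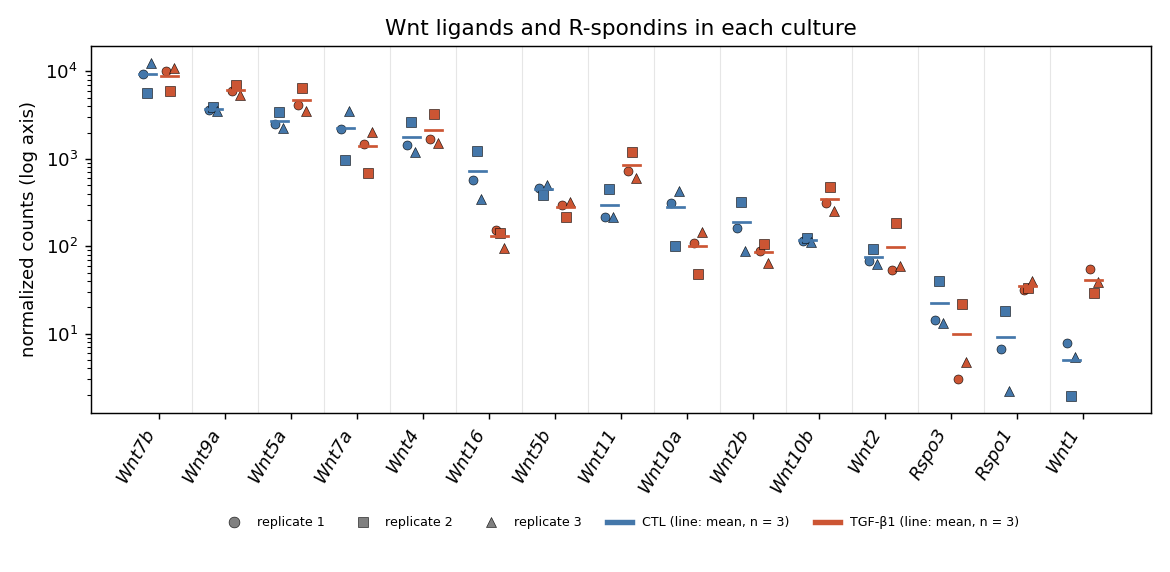
Normalized counts (log axis) of the 13 Wnt ligands and 2 R-spondins tested, ordered by CTL mean, in each of 3 CTL (blue) and 3 TGF-β1 (red) cultures. Symbols give the replicate number and lines the group means. All red points lie above all blue points for Wnt1, Wnt10b, Wnt9a, Wnt11, Wnt5a and Rspo1, and all lie below for Wnt16 and Wnt5b.

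Wnt7b, which the collecting duct needs to form the renal medulla, was the most abundant ligand per kb of exon in CTL cultures. Its level in CPM per kb was 60.7, 36.3 and 81.2 in CTL and 64.8, 38.5 and 70.1 with TGF-β1, and its log2 fold change was -0.04 (edgeR adjusted p = 0.959). Wnt9a followed, at 34.6, 37.1 and 33.1 CPM per kb in CTL and 57.1, 65.9 and 51.0 with TGF-β1. On this scale Wnt7b was above Wnt9a in replicates 1 and 3 of each group and below it in replicate 2, so with TGF-β1 the means (57.8 ± 16.9 and 58.0 ± 7.46, SD, n = 3) did not differ beyond their spread. Wnt7a (22.3 ± 12.8 CPM per kb in CTL), Wnt4 (13.3 ± 5.87) and Wnt5a (11.1 ± 2.56) came next, and these neighbours in the order were not separated beyond their spread either. Wnt2 was tested but passed in neither fit (log2 fold change 0.40). The other 6 ligands, Wnt3, Wnt3a, Wnt6, Wnt8a, Wnt8b and Wnt9b, had at most 9 reads in any library.

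Of the R-spondins, 0 of 2 tested passed in edgeR without the block, 1 had an unadjusted p under 0.05, and DESeq2 called 1 (Rspo1). Rspo1 had 6.77, 18.3 and 2.18 normalized counts in CTL and 31.5, 33.2 and 40.4 with TGF-β1, all treated cultures being above all controls. Its log2 fold change was 1.91 (edgeR adjusted p = 0.0799, and 0.0187 with the block), and 2.94 with both replicate 2 cultures left out (edgeR adjusted p = 0.014). The CTL cultures had 7, 19 and 2 reads, close to the limit of detection, so the size of this increase is less certain than its direction. Rspo3 had 14.5, 40.4 and 13.1 normalized counts in CTL and 3.05, 21.8 and 4.70 with TGF-β1. The groups overlapped at replicate 2, and the log2 fold change was -1.22 (edgeR adjusted p = 0.378, and 0.0198 with the block). Leaving out the CTL culture of replicate 2 gave -0.51, and leaving out its TGF-β1 culture gave -2.52. Rspo2 had 12, 41 and 5 reads in CTL and 3, 5 and 1 with TGF-β1, too few for the test, and Rspo4 had at most 2.

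Of the Frizzled receptors, 9 of 10 were tested and Fzd4 alone passed without the block. Fzd4, a Wnt receptor that also binds Norrin in retinal vessels, lies on chr7:89404355-89413134, plus strand. It had 2750, 2436 and 2217 normalized counts in CTL and 1589, 1103 and 1519 with TGF-β1. Every treated culture was under every CTL culture. From 2468 ± 268 to 1404 ± 263 (SD, n = 3), the log2 fold change was -0.81 (standard error 0.16, edgeR adjusted p = 0.0278). With the block, 3 further Frizzled genes passed. Fzd2 had 1462, 2093 and 1429 against 2599, 3275 and 2062 normalized counts (log2 fold change 0.67, edgeR adjusted p = 0.107, and 0.000156 with the block), and only CTL replicate 2 reached the range of the treated cultures. Fzd6, the most abundant Frizzled per kb (37.0 ± 7.91 CPM per kb in CTL, SD, n = 3) and a planar polarity receptor, had a log2 fold change of 0.27 (edgeR adjusted p = 0.371, and 0.00647 with the block). Its normalized counts were 5824, 4367 and 6765 in CTL and 7218, 5828 and 7446 with TGF-β1. Fzd1 went from 2286, 2412 and 2260 to 2081, 1682 and 2056 normalized counts, with no overlap and a log2 fold change of -0.26 (edgeR adjusted p = 0.121, and 0.0411 with the block). Fzd3, Fzd5, Fzd7, Fzd8 and Fzd9 passed in neither fit, with log2 fold changes from -0.18 to 0.07, and Fzd10 had at most 17 reads.

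The co-receptors gave 0 calls of 5 tested in edgeR without the block, where 2 had an unadjusted p under 0.05, and DESeq2 called 1 (Ror1). Lrp6, which with Lrp5 starts the β-catenin branch, had a log2 fold change of -0.10 (edgeR adjusted p = 0.271) and passed in neither fit. Lrp5 had 3365, 3054 and 3862 normalized counts in CTL and 2589, 1925 and 2979 with TGF-β1, so each treated culture was under every CTL culture (log2 fold change -0.46, edgeR adjusted p = 0.149, and 0.00102 with the block). Ror1, a receptor tyrosine kinase-like partner of Wnt5a, had 576, 825 and 414 against 281, 368 and 265 normalized counts. These groups did not overlap (log2 fold change -0.99, edgeR adjusted p = 0.0707, and 0.000365 with the block). Ryk was the most abundant co-receptor per kb, at 40.7 ± 4.07 CPM per kb in CTL and 42.0 ± 2.44 with TGF-β1 (SD, n = 3; edgeR adjusted p = 0.774). Ror2 passed in neither fit (log2 fold change -0.21).

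The R-spondin receptors moved in opposite directions. Lgr5, a receptor known as a stem cell marker and a β-catenin target, lies on chr10:115450311-115587780, minus strand. It had 54.1, 46.2 and 69.8 normalized counts in CTL and 297, 131 and 318 with TGF-β1. Replicate 2 was lowest in both groups, and its treated culture was still above every CTL culture. The means were 56.7 ± 12.0 and 248 ± 102 (SD, n = 3), a log2 fold change of 2.13 (standard error 0.38, edgeR adjusted p = 0.0224), or 4.39-fold. Lgr4, the widely expressed receptor of this family, had 5273, 7994 and 3570 normalized counts in CTL and 2896, 3879 and 2396 with TGF-β1. It fell only in the fit with the block (log2 fold change -0.88, edgeR adjusted p = 0.139, and 0.000509 with the block), and TGF-β1 replicate 2 overlapped the CTL range. Per kb, Lgr4 was far above Lgr5 in both groups, at 30.1 ± 12.0 CPM per kb in CTL and 16.4 ± 4.05 with TGF-β1 (SD, n = 3).

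Among the secreted inhibitors, Sfrp1 fell and the other 4 tested did not pass without the block. Sfrp1, which binds Wnt proteins through a Frizzled-like domain, lies on chr8:23411502-23449632, plus strand. It had 119, 174 and 113 normalized counts in CTL and 61.0, 63.2 and 49.8 with TGF-β1. The treated cultures were close together and all under the controls. The mean fell from 136 ± 33.6 to 58.0 ± 7.20 (SD, n = 3), a log2 fold change of -1.23 (standard error 0.22, edgeR adjusted p = 0.0214). Sfrp4 had 19.3, 148 and 19.6 normalized counts in CTL and 8.13, 20.7 and 7.52 with TGF-β1. CTL replicate 2 carried most of its reads (log2 fold change -2.37, edgeR adjusted p = 0.186, and 0.00167 with the block), and without that culture the log2 fold change was -0.69. Sfrp2 had 282, 488 and 145 normalized counts in CTL and 149, 163 and 145 with TGF-β1, and passed in neither fit (edgeR adjusted p = 0.18, and 0.0568 with the block).

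Dkk3, a divergent Dickkopf protein, was the most abundant member per kb in both groups, at 241 ± 77.1 CPM per kb in CTL and 333 ± 61.3 with TGF-β1 (SD, n = 3). Its normalized counts were 23451, 34765 and 18802 in CTL and 34869, 42301 and 29308 with TGF-β1, the CTL culture of replicate 2 falling inside the treated range. The log2 fold change was 0.47 (edgeR adjusted p = 0.285, and 0.00151 with the block). Dkk2, an inhibitor that binds Lrp6, passed in neither fit (log2 fold change -0.13), although without both replicate 2 cultures its log2 fold change was -0.56 (edgeR adjusted p = 0.0222). Dkk1 and Wif1, classical inhibitors of Wnt reception, had at most 2 reads, and Dkk4 had 0 in every library. With 3 reads as the limit, a level of up to about 0.106 CPM is allowed for these 3 genes. Sfrp5 had at most 4 reads.

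The feedback genes and ubiquitin ligases, whose transcripts are used as readouts of β-catenin activity, gave 0 calls of 5 tested in edgeR without the block. An unadjusted p under 0.05 was found for 1 of them, and DESeq2 called 0. Axin2, a scaffold of the complex that degrades β-catenin and a widely used target gene, had 298, 467 and 242 normalized counts in CTL and 496, 621 and 396 with TGF-β1. Only CTL replicate 2 reached the treated range, and each treated culture was above its same-numbered control. The log2 fold change was 0.59 (edgeR adjusted p = 0.235, and 0.00144 with the block), and without both replicate 2 cultures 0.72 (edgeR adjusted p = 0.0348). Nkd1, which restrains Dishevelled, had 197, 400 and 136 against 399, 621 and 330 normalized counts. Here too CTL replicate 2 was the sole control inside the treated range (log2 fold change 0.88, edgeR adjusted p = 0.253, and 0.000876 with the block). Its paralog Nkd2 had 28, 47.1 and 22.9 against 14.2, 19.7 and 15.0 normalized counts, with no overlap (log2 fold change -1.01, edgeR adjusted p = 0.11, and 0.0153 with the block). Znrf3 was nearly level, at 693, 703 and 710 normalized counts in CTL and 734, 669 and 722 with TGF-β1 (log2 fold change 0.01, edgeR adjusted p = 0.925). Rnf43 had 424, 269 and 405 against 347, 192 and 358 normalized counts (log2 fold change -0.29, edgeR adjusted p = 0.562, and 0.0302 with the block).

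Of the 3 TCF/LEF factors, Tcf7l2 rose. Tcf7l2, a partner of β-catenin on DNA, lies on chr19:55741820-55933654, plus strand, and had 723, 804 and 721 normalized counts in CTL and 1027, 962 and 973 with TGF-β1. Replicates lay within a narrow range in each group and the groups did not overlap. The means were 750 ± 47.5 and 987 ± 34.5 (SD, n = 3), a small difference with a log2 fold change of 0.40 (standard error 0.07, edgeR adjusted p = 0.0188). Lef1 had 62.8, 113 and 76.4 normalized counts in CTL and 156, 252 and 153 with TGF-β1. All treated cultures were above all controls, and the log2 fold change was 1.15 (edgeR adjusted p = 0.0579, and 0.000292 with the block). Tcf7 had 543, 389 and 709 against 630, 363 and 736 normalized counts and passed in neither fit.

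**Figure D3:**
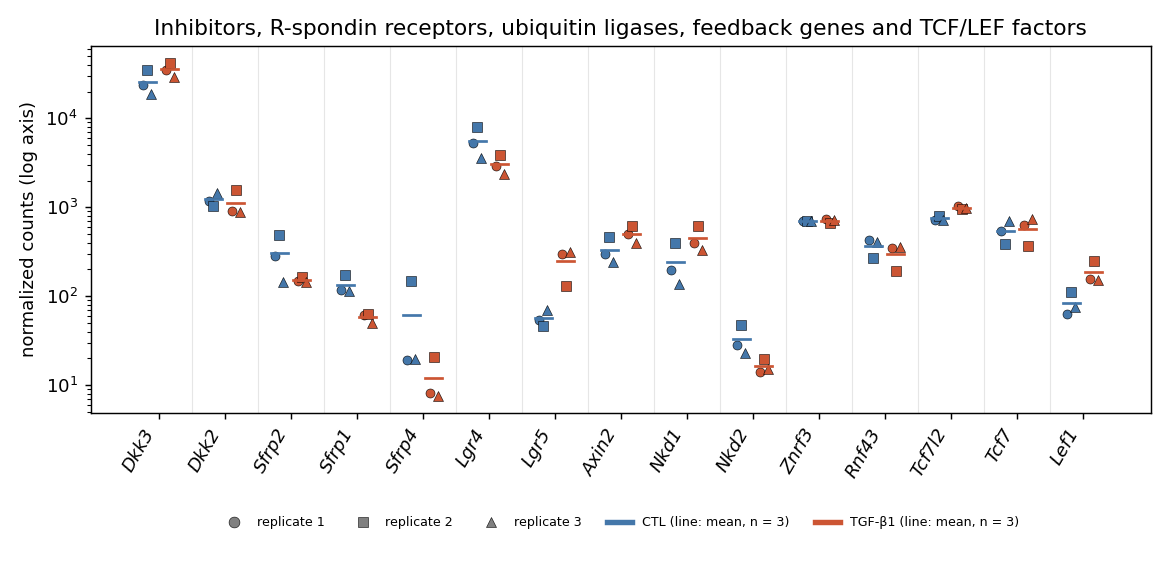
Normalized counts (log axis) of the secreted inhibitors, R-spondin receptors, feedback genes, ubiquitin ligases and TCF/LEF factors tested, in each of 3 CTL (blue) and 3 TGF-β1 (red) cultures. Symbols give the replicate number and lines the group means; the groups are apart for Lgr5, Sfrp1, Tcf7l2, Lef1 and Nkd2, and replicate 2 (squares) is high in both groups for Sfrp4, Axin2 and Nkd1.

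Many of these calls depended on the pairing of the cultures. Of the 22 members that passed only with the block, 11 also passed in edgeR when both replicate 2 cultures were left out without a block (Wnt11, Wnt5a, Wnt5b, Wnt10a, Rspo1, Fzd2, Ror1, Axin2, Nkd1, Dkk3 and Lef1). Replicate 2 was the highest culture in both groups for 24 of the 44 members (54.5%, against 24.9% of all tested genes) and the lowest in both for 11 (25.0%, against 24.9%). The high set held Axin2, Nkd1, Lef1, Sfrp1, Sfrp2, Sfrp4, Ror1, Ror2 and Wnt5a, and the low set held Wnt7a, Wnt7b, Wnt10a, Fzd6 and Tcf7. Cdh1, the epithelial cadherin, had 7293, 2582 and 10737 normalized counts in CTL, and Pdgfrb, a receptor of pericytes and fibroblasts, had 3217, 7201 and 2164. Other genes of their lists did not follow them. Pax8 of the epithelial list had 6709, 6812 and 6094 in CTL, and Postn of the fibroblast list had 21510, 10486 and 14441. The part of this difference between cultures in the Wnt gene values was not tested. Within same-numbered cultures, 16 of 44 members were higher with TGF-β1 in 3 of 3 pairs and 19 were lower in 3 of 3 (36.4% and 43.2%), against 30.4% and 32.6% of all tested genes. Without regard to pairs, 9 members had every treated culture above every control and 10 had every treated culture below, where 17.2% and 18.0% of all tested genes did so.

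**Figure D4:**
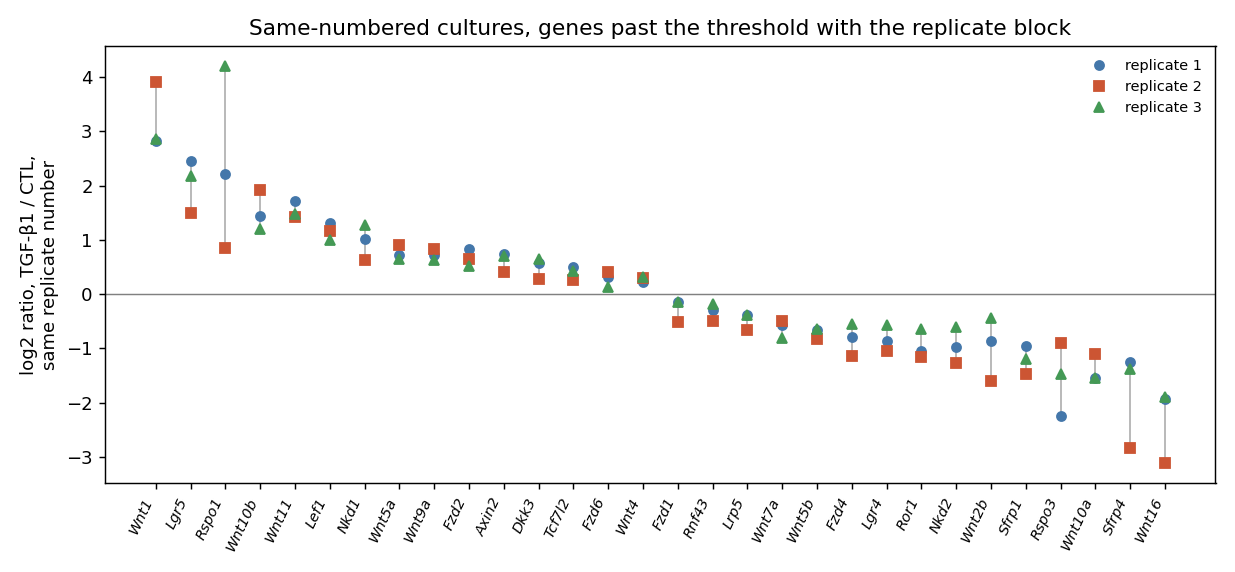
Log2 ratio of normalized counts, TGF-β1 over CTL culture of the same replicate number (y axis), for the 30 Wnt genes past the threshold with the replicate block. Each symbol is 1 of 3 pairs and the grey line spans them; 15 genes sit above 0 and 15 below by the fitted value.

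Genes of the wider pathway, taken as 5 lists of 81 genes, gave 8 higher and 5 lower of 74 tested (17.6%, against 11.7% of all genes). With the block, 28 rose and 13 fell (55.4%, against 34.2% of all genes). In the list of secretion genes and co-factors, 12 were tested, 2 rose and 1 fell. Sostdc1, a secreted antagonist of Lrp5 and Lrp6 and of BMP that kidney tubules make, had 86.0, 68.3 and 63.3 normalized counts in CTL and 1.02, 1.04 and 5.64 with TGF-β1. The treated cultures were close to the limit of detection, so the size of this decrease is less certain than its direction, with a log2 fold change of -4.72 (standard error 0.48, edgeR adjusted p = 0.00524). Wls, the carrier that takes Wnt proteins to the cell surface, had 15467, 16594 and 14883 normalized counts in CTL and 20083, 22057 and 19860 with TGF-β1 (log2 fold change 0.40, edgeR adjusted p = 0.0213). Lgr6, the remaining R-spondin receptor of the Lgr family, had 2259, 1440 and 2714 against 6980, 4026 and 7936 normalized counts (log2 fold change 1.56, edgeR adjusted p = 0.0354), or 2.96-fold. For Wls and Lgr6 the groups did not overlap.

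In the destruction complex and Dishevelled list, 1 of 23 tested genes rose and 1 fell. These were Tnks, a polymerase that marks Axin for degradation (log2 fold change 0.26, edgeR adjusted p = 0.026), and Apc2 (log2 fold change -0.68, edgeR adjusted p = 0.0261). Of 12 nuclear co-factors, 0 passed in edgeR without the block or in DESeq2, and 2 had an unadjusted p under 0.05 in edgeR without the block. With the block 3 rose (Tle1, Bcl9l and Tle4), or 25%, against 34.2% of all genes. In the planar polarity list, Prickle1 (log2 fold change 1.07, edgeR adjusted p = 0.026) and the formin Daam1 (0.34, 0.00889) rose, while Prickle2 (-0.75, 0.0124) and Fuz (-0.44, 0.0261) fell, of 13 tested. Among 14 tested transcripts often read as β-catenin targets, 3 rose and 1 fell. Ccn4, a matricellular protein also named Wisp1, rose by 1.18 on the log2 scale (edgeR adjusted p = 0.00379), and Tnfrsf11b, the decoy receptor osteoprotegerin, by 1.76 (edgeR adjusted p = 0.0161). Gad1 rose by 2.06 (edgeR adjusted p = 0.034), and Ccnd1, the cell cycle regulator cyclin D1, fell by 1.02 (edgeR adjusted p = 0.0166). With the block, 8 of these 14 rose and 3 fell (78.6%, against 34.2% of all genes). Besides Ccnd1, Sp5 fell there (log2 fold change -1.19, edgeR adjusted p = 0.175, and 0.000212 with the block). Bambi fell as well (log2 fold change -0.53, edgeR adjusted p = 0.224, and 0.017 with the block).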

How the data were processed

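Poly(A) RNA of 6 cultures, purified from 100 ng of RNA with the Illumina TruSeq RNA kit, was sequenced as 50-bp single-end reads. The authors trimmed the reads with Trim Galore, aligned them to GRCm38 with STAR 2.4.1d and deposited read counts per gene from HTSeq 0.6.1, without normalization. The strand setting and annotation release of the counting are not given in the sources used here. HTSeq by its rules leaves out reads on more than 1 gene or place, so close paralogs and overlapping genes can be undercounted. Its 5 summary rows per file were left out of totals. They held 4.16 to 4.93% of the counts on no gene, 1.88 to 1.97% as ambiguous and 18.7 to 19.4% as not unique. Symbols, positions and union exon lengths came from GENCODE M21, which matched 46005 of 46517 identifiers.

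Counts were fitted over 15862 genes in R 4.3.3 with edgeR 4.0.16 (filterByExpr, TMM, robust glmQLFit, glmQLFTest, two-sided) and adjusted by Benjamini-Hochberg at a threshold of 0.05. Normalized counts are TMM-scaled to the geometric mean library size of 31685910, and levels between genes are CPM per kb of exon. The main fit had no block, as the paper describes none. Same-numbered cultures of the labels did pair: deviations from group means correlated at 0.308, 0.663 and 0.546, against -0.593 to 0.198 for other pairs. Other settings tried were the replicate block, leaving out cultures, scaling by RLE or by library totals alone, keeping every gene with at least 1 count, and DESeq2 1.42.0. Genes were named by rule: every member may be named, with values in each library for those past the threshold in either fit and for the most abundant ligand, receptor and inhibitor per kb. In the other pathway lists, genes past the threshold were named. Members and lists were chosen with earlier results of these data known. Promoters came from RefSeq on GRCm38.p6.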

Additional observations from a re-analysis of the deposited data

How the results depend on the processing

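The 8 called members kept their direction in every alternative run. RLE normalization gave the same 5 higher and 3 lower members. Keeping every gene with at least 1 count, Wnt16 was no longer called and the other 7 were. DESeq2, fitted on every gene with at least 1 count, called 10 higher and 8 lower. The share of all genes that DESeq2 called is not given here, so these calls cannot be set against a background. At an unadjusted p under 0.05 DESeq2 had 25 of the tested members and 4317 of all genes, beside 19 and 4529 in the main edgeR fit. With the replicate block, 15 members were higher and 15 lower, 2388 and 3037 of all genes, and 28 and 13 of the other pathway genes, beside 793 and 1061 of all genes without it. With library size only, 508 of all genes were higher, and the log2 fold changes of Fzd5 (-0.0056), Ryk (-0.0290) and Znrf3 (-0.0614) changed sign, while the median log2 fold change of all genes was -0.077 (-0.003 with TMM). The cause was not tested.

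Leaving out 1 culture, or both of a replicate number, gave 0 to 13 members higher and 0 to 7 lower, 0 to 1067 and 0 to 1271 of all genes, and 0 to 16 and 0 to 5 of the other pathway genes. Without CTL replicate 1, TGF-β1 replicate 1, both replicate 1 or both replicate 3 cultures, edgeR called 0 of the 8, and 14, 16, 9 and 20 members had an unadjusted p under 0.05. In the same order, 3065, 3530, 1933 and 3608 of the 15862 genes tested had one. Of the 8, 6 remained called without CTL replicate 2, 7 without CTL replicate 3, 7 without TGF-β1 replicate 2, 4 without TGF-β1 replicate 3, and all 8 without both replicate 2 cultures. In these fits, 11 members changed sign in the fit without the block: Dkk2 ranged from -0.56 to 0.15, Fzd3 from -0.0893 to 0.0803, Fzd7 from -0.136 to 0.0252, Fzd9 from -0.223 to 0.0923, Ror2 from -0.466 to 0.0875, Ryk from -0.0113 to 0.128, Tcf7 from -0.142 to 0.314, Wnt2 from -0.409 to 0.704, Wnt4 from -0.155 to 0.703, Wnt7b from -0.295 to 0.254 and Znrf3 from -0.0241 to 0.0527. Among members called only with the block, the log2 fold change without it moved by over 1.5 times with no change of sign for Fzd1, Fzd6, Rspo1, Rspo3, Lgr4, Wnt2b, Wnt5a, Wnt7a, Axin2, Nkd1, Nkd2, Rnf43, Dkk3 and Sfrp4 in at least 1 of these fits. Genes with fewer than about 10 reads are limited by depth.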
